A study of Mus musculus with 60 samples.

Results

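The arrays described here are the 6 of 60 in the series that carried RNA from Balb/c 3T3 cells given 0.5 µM benzo(a)pyrene (BaP), 3 taken after 24 h and 3 after 120 h, and they were chosen by their titles. Balb/c 3T3 is an established line of mouse embryo fibroblasts from the BALB/c strain, and its cells stop dividing when they become crowded. Cells were plated sparsely and treated at 60 to 65% confluence. Their total RNA was labelled with biotin and read on single-colour oligonucleotide arrays, and the series as a whole set chemical carcinogens against solvent in these cells. The controls were 6 arrays of cells kept in 0.75% DMSO without a test chemical, 3 at 24 h and 3 at 120 h, from the same set of literature concentrations. A further 6 arrays, of cells given 2 µM 3-methylcholanthrene (MCA) for the same times, serve as the closest other treatment. The labels do not say whether the treated dishes carried the same share of DMSO. They speak of triplicates and of 6 dishes per treatment, and how the dishes relate to the 3 arrays of a group is not given in them. If they are not independent cultures, the p-values reflect technical variation among arrays and nothing wider.

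BaP and MCA are polycyclic aromatic hydrocarbons that bind the aryl hydrocarbon (Ah) receptor, a transcription factor of the cytosol. The bound receptor enters the nucleus, pairs with Arnt and switches on genes of foreign compound metabolism such as Cyp1a1 and Cyp1b1, whose enzymes turn BaP into reactive diol epoxides that attach to DNA. Fibroblasts held for days in a dish pass from growth to contact arrest, during which cell division genes fall and matrix genes rise, so a change between 24 h and 120 h mixes the age of the culture with the chemical. The comparison therefore set the change over time with BaP beside the change over time in DMSO, and tested the difference between these changes. That difference, here called the time-change difference, is the same quantity as the response to BaP (BaP minus DMSO) at 120 h minus the response at 24 h.

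The 12 BaP and DMSO arrays had medians of 41.7 to 47.1 deposited intensity units, and within a group the mean correlation per array ran from 0.989 to 0.996. Over all 30 arrays of the literature concentrations, which shared the fit, medians began at 41.2 and these correlations at 0.981, and the 3 arrays of 50 µM DAT at 120 h had the lowest. No pair of arrays held identical values. All 12 fibroblast markers were among the 11957 genes tested and summed to 36644 to 37946 units with BaP at 24 h and 42344 to 45306 at 120 h. In DMSO they summed to 39339 to 41022 and then 52584 to 56514, above BaP without overlap at both times. With BaP 3 of the 12 had a log2 estimate above DMSO and 9 below at 24 h, and 4 above and 8 below at 120 h. At 120 h Col1a1 averaged 3552 with BaP and 6833 in DMSO and Col3a1 4699 and 8647, while Thy1 averaged 244 and 107. None of 9 endothelial markers passed the filter on low values, and their summed level was 100 to 138 units with BaP and 120 to 143 in DMSO. Of 10 epithelial markers 2 were tested, Epcam (group means of 112 to 215) and Krt5 (58.0 to 91.1), and the list summed to 291 to 319 and then 347 to 396 with BaP and to 318 to 404 and then 433 to 476 in DMSO. Of 7 adipocyte markers 2 were tested, and the list summed to 1288 to 1441 and then 3445 to 3647 with BaP and to 1215 to 1476 and then 2587 to 3237 in DMSO, mostly from Lpl, while Adipoq stayed below 6 units. Among the 4 of 10 macrophage markers tested, Cd14 averaged 201 and 225 units with BaP at the times named and 122 and 131 with DMSO. Csf1r averaged 191 and 210 with either. Adgre1 averaged 58.9 and 57.7 with BaP against 54.4 and 51.0 with DMSO, and Lyz2 136 and 179 against 120 and 200. The log2 ratio of the 3' to the 5' Gapdh probe sets, a sign of RNA quality, was -0.33 ± 0.02 (SD, n = 3) at 24 h and -0.10 ± 0.02 at 120 h with BaP, and -0.29 ± 0.04 and -0.16 ± 0.03 with DMSO, and the part of these ratios and marker levels in the results below was not tested. In RNA from whole dishes, fewer cells of a kind and less RNA per cell cannot be told apart.

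Most transcripts that changed with time under BaP changed the same way in DMSO. Between 24 h and 120 h with BaP, 6986 genes changed (limma with Benjamini-Hochberg adjustment below 0.05), 58.4% of those tested, 3482 higher and 3504 lower. In DMSO 7086 genes changed, 59.3% of those tested, with 29.9% higher and 29.3% lower. Of the genes that changed in both, 5779 moved in the same direction, which was 82.7% of those called with BaP and 81.6% of those called in DMSO, and 78 moved in opposite directions. Over all genes, the SD of the log2 change over time was 0.53 with BaP and 0.59 in DMSO. Changes of at least 2-fold numbered 800 with BaP and 963 in DMSO. The time-change difference passed the test for 1084 genes, 9.07% of those tested, of which 641 were higher and 443 lower, and for 69 of them it was at least 2-fold. With same-numbered arrays of a time treated as a block the count was 1934.

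**Figure D1:**
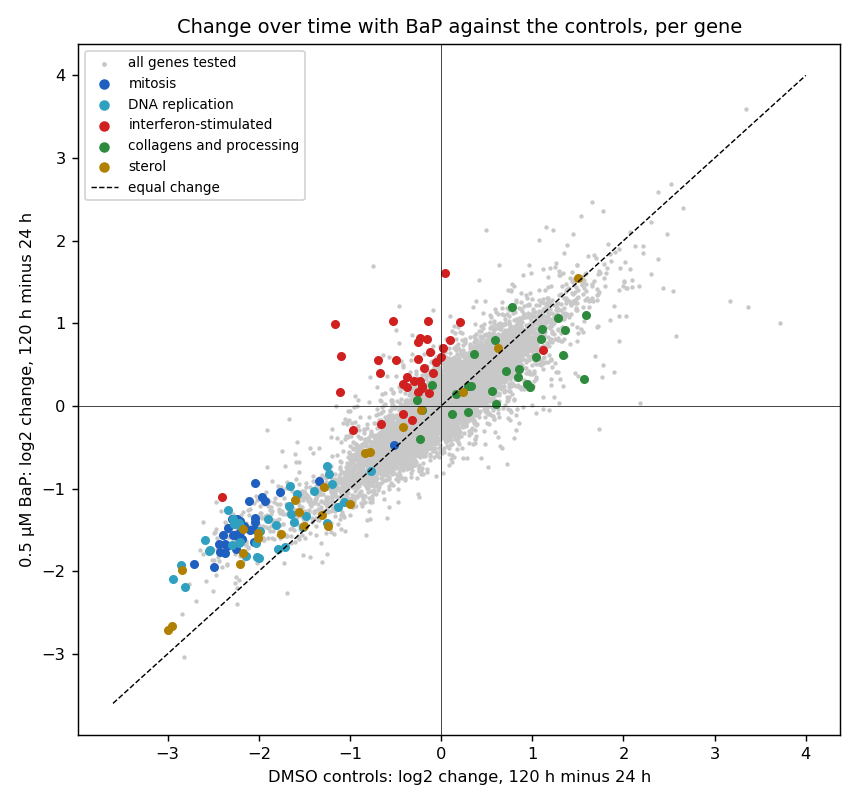
Each point is a gene tested, with its log2 change from 24 h to 120 h in the DMSO controls on the horizontal axis and with 0.5 µM BaP on the vertical axis, and the dashed line marks equal change. Mitosis and DNA replication genes lie in the lower left above the line, interferon-stimulated genes lie above it around the centre, and collagen genes lie mostly below it on the right.

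The genes with the largest changes over time under BaP mostly changed in DMSO too. The 10 highest were Mlana, Ccn1, C1s1, Thbs1, Col20a1, Cp, Adamts1, Ltbp2, Thbd and H1f2, and the 10 lowest were AF067061, Idi1, Fdps, Ska1, Hmgn5, BC080696, Cth, Usp17la, Lmnb1 and Tk1. Ccn1, which encodes a matrix-associated signalling protein, read 512, 533 and 552 with BaP at 24 h and 3357, 3392 and 3625 at 120 h. Its log2 change was 2.69 ± 0.08 (SE of the fit) with BaP and 2.52 ± 0.08 in DMSO, where it rose from 431 to 530 units up to 2638 to 2997. Mlana, a melanocyte antigen, had log2 changes of 3.59 ± 0.16 and 3.34 ± 0.16. At the low end, Fdps, which makes farnesyl diphosphate for sterols, read 2315, 2123 and 2281 with BaP at 24 h and 330, 384 and 324 at 120 h. Its log2 change was -2.66 ± 0.07 with BaP and -2.95 ± 0.07 in DMSO. AF067061 and BC080696 were near 0 units at 120 h under BaP, so their log2 changes of -3.03 and -2.36 rest on the 16 units added before the logarithm. The time-change difference of Ccn1, C1s1, Mlana, Ltbp2, Col20a1, Idi1, Fdps, Ska1, Hmgn5, Lmnb1, Usp17la, AF067061 and BC080696 did not pass the test (for Fdps it was 0.29, adjusted p = 0.052, and passed in 7 of 23 alternatives, with adjusted p = 0.0115 under the block within time), while those of Thbs1 (0.81), Adamts1 (0.77), Thbd (1.01), H1f2 (0.90), Cp (0.59, adjusted p = 0.0456), Tk1 (0.61) and Cth (-0.57) did.

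Response against DMSO was broader at 120 h than at 24 h in these arrays. At 24 h, 1158 genes differed between BaP and DMSO, 9.68% of those tested, 556 higher and 602 lower, and the count was 738 without BaP 24 h replicate 1 and 2084 with same-numbered arrays as a block. At 120 h, 3330 genes differed, 27.8% of those tested, 1717 higher and 1613 lower. Scaling arrays to a common median in place of quantiles gave 1526 higher and 891 lower at 120 h.

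Among Ah receptor targets, Cyp1a1 and Cyp1b1 stood further above the controls at 120 h than at 24 h. Of the 7 genes of the Ah receptor battery tested, 6 were higher with BaP at 24 h and all 7 at 120 h, against 4.65% and 14.4% of all genes. Their median log2 response was 1.55 at 24 h and 1.28 at 120 h. Cyp1a1 and Cyp1b1 had a higher time-change difference and Nqo1 and Aldh3a1 a lower one, and it did not pass for Tiparp, Nfe2l2 and Slc7a5. Over all genes 5.36% were higher and 3.7% lower.

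Cyp1a1 encodes the cytochrome P450 that is the best known product of Ah receptor activity. The 140 bases of its promoter just upstream of the RefSeq start (GRCm38.p6, chr9:57697473-57697612, plus strand) are shown because this gene had the largest response, with the letters GCGTG, the core of the Ah receptor element, in capitals.
Cyp1a1: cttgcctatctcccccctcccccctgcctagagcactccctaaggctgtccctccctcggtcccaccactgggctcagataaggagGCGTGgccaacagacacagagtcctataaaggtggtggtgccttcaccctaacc
Searched on both strands, GCGTG occurred in the 300-base promoter windows of 3 of the 5 battery genes that RefSeq listed, of 51.2% of tested genes and of 32.5% of all 27025 promoters. A match describes letters in the window and no binding. Cyp1a1 read 39.0, 24.0 and 31.8 units in DMSO at 24 h and 13.8, 15.6 and 16.1 at 120 h. With BaP it read 1751, 1830 and 1733 at 24 h and 2368, 2800 and 2588 at 120 h, so that the 4 groups did not overlap and the times moved in opposite directions. Its log2 response was 5.21 ± 0.12 at 24 h and 6.47 ± 0.12 at 120 h, a time-change difference of 1.25 ± 0.16 (adjusted p = 7.21e-06, limma). The control values lie below the array medians, and the 16 added units understate both responses.

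Cyp1b1, a P450 that also activates BaP, read 4175, 4132 and 4086 with BaP at 24 h and 7347, 7310 and 7586 at 120 h. In DMSO it read 1247, 1125 and 1503 at 24 h and 1686, 1404 and 1414 at 120 h, where the times overlap. The time-change difference was 0.55 ± 0.09 (adjusted p = 7.93e-05). Tiparp, an ADP-ribosyltransferase that restrains the receptor, rose in both, from 1598 to 1737 up to 2231 to 2390 with BaP and from 577 to 643 up to 789 to 907 in DMSO. This gave a time-change difference of 0.07 ± 0.08, with a 95% interval of -0.08 to 0.22. Nqo1, a quinone reductase shared by the Ah receptor and Nrf2, fell with BaP from 1145, 1121 and 1220 to 272, 318 and 342, and in DMSO from 348, 334 and 465 to 129, 149 and 162. Its response went from 1.55 to 0.97, and the call of the time-change difference (-0.58 ± 0.18, adjusted p = 0.0392) was lost in 14 of 23 alternatives. Aldh3a1, an aldehyde dehydrogenase, read 119 to 144 with BaP at 24 h and 64.4 to 76.9 at 120 h while DMSO stayed at 13.7 to 31.2. Its time-change difference of -0.83 ± 0.24 (adjusted p = 0.0284) was lost in 8 of 23 alternatives, and leaving out BaP 120 h replicate 1, BaP 24 h replicate 1 or 2 or DMSO 24 h replicate 2 left neither Nqo1 nor Aldh3a1 called. The receptor gene Ahr itself was lower with BaP at both times, by -0.33 ± 0.08 and -0.53 ± 0.08, with a time-change difference of -0.20 ± 0.11 that did not pass (95% interval -0.43 to 0.03).

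**Figure D2:**
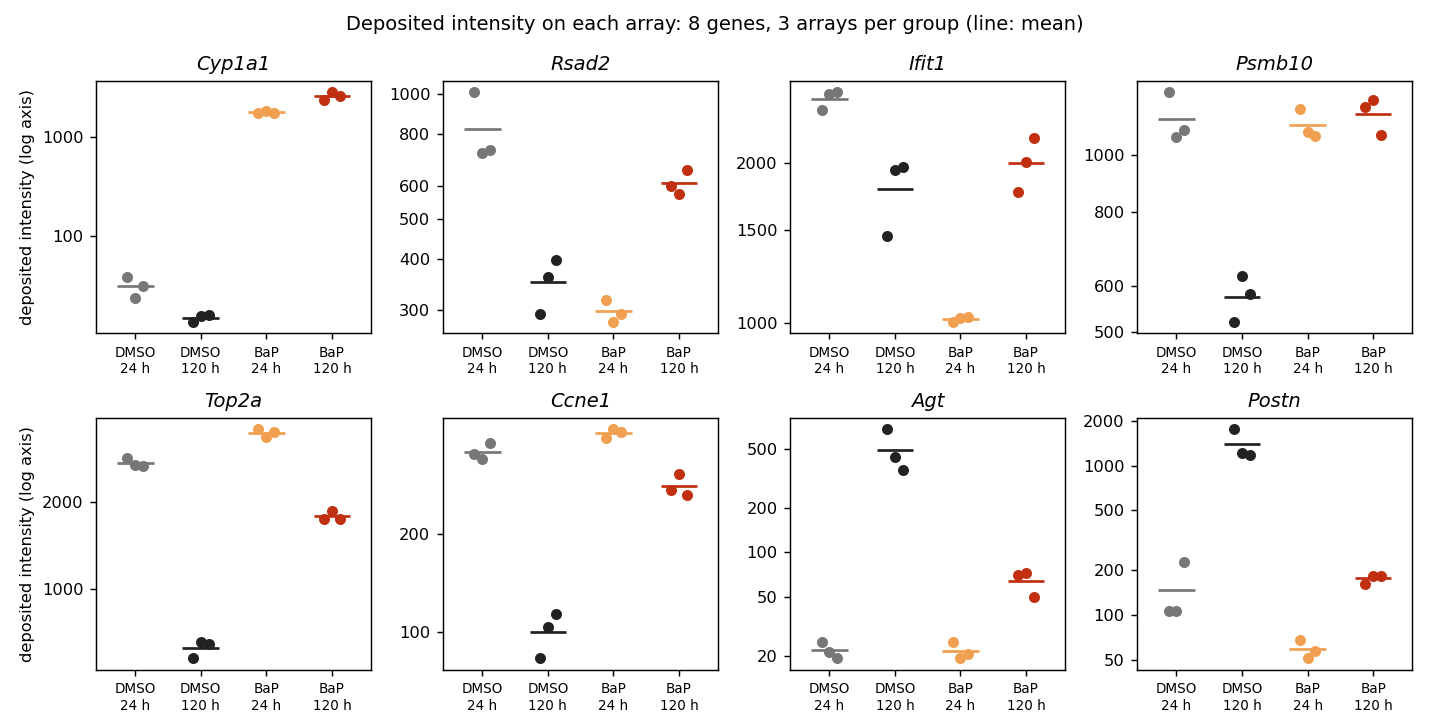
Deposited intensity on a log axis for 8 genes on each of the 12 arrays of DMSO and 0.5 µM BaP at 24 h and 120 h, 3 arrays per group, with a line at the group mean. Cyp1a1 rose with BaP between the times and fell in DMSO, Rsad2 and Ifit1 were lowest or near lowest with BaP at 24 h, Top2a and Ccne1 fell less with BaP, and Agt and Postn rose most in DMSO.

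Interferon-stimulated genes, the antiviral programme that type I interferon switches on through Stat and Irf factors, began low under BaP and then rose. At 24 h 33 of the 36 tested were lower with BaP than with DMSO, against 5.03% of all genes, with a median log2 response of -0.77. At 120 h 7 were higher and 9 lower, against 14.4% and 13.5% of all genes, and the median was 0.01. The change over time with BaP was upward for 28 and downward for 2, against 29.1% and 29.3% of all genes. In DMSO it was upward for 2 and downward for 20, against 29.9% and 29.3%. The medians were 0.49 with BaP and -0.25 in DMSO, and that of all genes with BaP was -0.01. Of the 36, 29 had a higher time-change difference and 1 a lower one, Ifi27 (-0.44, not called without DMSO 24 h replicate 1 or 2, DMSO 120 h replicate 1 or BaP 24 h replicate 2). The count of higher genes ran from 25 to 33 under the alternatives.

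The promoters of Rsad2, Ifit1 and Ifit3 are shown because these genes had 3 of the 4 largest time-change differences of the list. Each line gives the 140 bases upstream of the RefSeq start in GRCm38.p6, at chr12:26456453-26456592 (minus strand), chr19:34640749-34640888 (plus) and chr19:34583389-34583528 (plus), with matches to GAAA, any 2 bases and GAAA again, the core of the interferon-stimulated response element, in capitals on either strand.
Rsad2: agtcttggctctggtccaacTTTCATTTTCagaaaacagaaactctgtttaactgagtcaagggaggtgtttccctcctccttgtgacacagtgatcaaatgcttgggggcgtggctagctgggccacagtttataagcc
Ifit1: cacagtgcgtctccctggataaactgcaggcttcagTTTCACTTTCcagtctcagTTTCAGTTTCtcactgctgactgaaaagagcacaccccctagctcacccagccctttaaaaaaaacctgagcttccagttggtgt
Ifit3: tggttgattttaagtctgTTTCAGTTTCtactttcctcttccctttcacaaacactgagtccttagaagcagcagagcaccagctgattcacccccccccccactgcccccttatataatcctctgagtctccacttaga
The motif occurred in 13 of the 25 interferon-list promoters that RefSeq listed (52%), against 2.97% of tested genes and 3.49% of all promoters. Windows were chosen for print after the search.

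Rsad2 encodes viperin, an antiviral enzyme of the endoplasmic reticulum. In DMSO it read 1009, 721 and 734 at 24 h and 294, 361 and 396 at 120 h, and with BaP 318, 282 and 295 at 24 h and 598, 573 and 653 at 120 h. Each group fell or rose without overlap between the times, in opposite directions. Its response went from -1.40 ± 0.14 to 0.75 ± 0.14, a time-change difference of 2.15 ± 0.19 (adjusted p = 3.52e-08), and its 2 other probe sets gave 1.96 and 1.70. Ifit1 and Ifit3, which bind foreign RNA or its partners in the cytosol, did not differ from the controls past the threshold at 120 h. Ifit1 read 1008, 1024 and 1028 with BaP at 24 h against 2520, 2696 and 2718 in DMSO, and 1769, 2010 and 2228 at 120 h against 1459, 1942 and 1965. The 24 h groups lay apart and the 120 h groups overlapped, with responses of -1.37 ± 0.11 and 0.18 ± 0.11. Ifit3 read 869, 708 and 791 with BaP at 24 h and 2140, 2393 and 2412 at 120 h, while DMSO read 2048 to 2212 and 1919 to 2345. The changes over time differed by 1.56 ± 0.15 (adjusted p = 1.46e-07).

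Zbp1, a sensor of Z-form nucleic acids, had a time-change difference of 1.71 ± 0.18 and read 241 to 268 with BaP at 24 h and 362 to 433 at 120 h. In DMSO it fell from 404 to 492 down to 147 to 234. Irf7, the factor that amplifies the interferon loop, read 208, 190 and 173 with BaP at 24 h and 400, 427 and 410 at 120 h, against 391 to 510 and 338 to 428 in DMSO (time-change difference 1.17 ± 0.14). Mx2, a dynamin-like antiviral protein, stayed below its controls at both times, with responses of -1.53 and -0.56, and its time-change difference of 0.97 lost its call when all 60 arrays were fitted. Cxcl10, a chemokine of the same programme, fell with time in both, from 1267 to 1298 down to 483 to 662 with BaP and from 2060 to 2761 down to 321 to 531 in DMSO. The time-change difference of Cxcl10 was 1.30 ± 0.23, and that of Oas3, which makes the oligoadenylate signal for RNA decay, was 1.50 ± 0.25.

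The machinery that presents peptides on class I molecules differed from the controls mainly at 120 h. Of its 14 genes tested, 2 were lower with BaP than with DMSO at 24 h, against 5.03% of all genes, and 9 were higher at 120 h, against 14.4%. The median log2 change over time was 0.39 with BaP and -0.08 in DMSO. The time-change difference was higher for 9 of 14, with a median of 0.46, against 5.36% and -0.01 over all genes, and it was higher for 5 with all 60 arrays fitted. Psmb10, a catalytic subunit of the immunoproteasome, read 1197, 1093 and 1079 with BaP at 24 h and 1206, 1242 and 1079 at 120 h. In DMSO it fell from 1277, 1074 and 1105 to 522, 622 and 581, so that only the 120 h controls stood apart from the other groups. Its time-change difference was 1.06 ± 0.11 (adjusted p = 2.11e-07), beside 0.83 ± 0.14 for the peptide trimmer Erap1 and 0.74 ± 0.10 for Psmb8. The class I heavy chain H2-D1 (0.13) and B2m (0.11), its light chain, did not pass, while another heavy chain, H2-K1 (0.23), did.

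Genes of cell division fell with time under BaP, but less than in DMSO. All 34 mitosis genes tested were lower at 120 h than at 24 h with BaP, against 29.3% of all genes, with a median log2 change of -1.48 and of -2.21 in DMSO. All 38 DNA replication genes were lower too, with medians of -1.44 and -1.94. At 24 h 5 mitosis genes and 8 replication genes were higher with BaP than with DMSO, against 4.65% of all genes, and none was lower. At 120 h 34 of 34 and 30 of 38 were higher, against 14.4%, with median responses of 0.86 and 0.56. A higher time-change difference was found for 33 of 34 mitosis genes, all but Bub3, and for 22 of 38 replication genes, against 5.36% of all genes. With all 60 arrays in the fit these counts were 26 and 12.

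Promoters of Top2a and Cdk1 (mitosis) and Mcm6 (replication) are shown because mitosis had the largest share of genes with a higher time-change difference among the lists described here, and because these windows hold cell cycle motifs. The windows are chr11:99024190-99024329, chr10:69352913-69353052 and chr1:128359706-128359845 in GRCm38.p6, all on the minus strand. Capitals mark CCAAT (the NF-Y box), TTTGAA and TTCGAA (the cell cycle homology region) in the first 2, and the E2F sites TTTCGCGC and TTTGGCGC in Mcm6, where a pair of them overlaps on opposite strands.
Top2a: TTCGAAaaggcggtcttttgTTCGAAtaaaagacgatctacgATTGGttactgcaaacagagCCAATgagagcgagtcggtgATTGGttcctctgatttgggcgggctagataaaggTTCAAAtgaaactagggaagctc
Cdk1: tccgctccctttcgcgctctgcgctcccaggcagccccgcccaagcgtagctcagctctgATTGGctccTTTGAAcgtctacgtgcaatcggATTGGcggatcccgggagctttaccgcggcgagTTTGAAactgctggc
Mcm6: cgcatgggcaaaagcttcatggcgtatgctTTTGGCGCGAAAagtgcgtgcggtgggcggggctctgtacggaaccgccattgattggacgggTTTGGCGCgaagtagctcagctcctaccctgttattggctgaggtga
CCAAT occurred in 21 of 28 mitosis promoters (75%) against 39.1% of tested genes, and TTTGAA in 20 of 28 (71.4%) against 11.7%. TTCGAA occurred in 4 of the 28 (14.3%) against 2.09%. TTTGGCGC occurred in 6 of 30 replication promoters (20%) against 1.04%, and TTTCGCGC in 5 of 30 (16.7%) against 0.642%.

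Top2a, the topoisomerase that untangles chromosomes before they part, read 2832, 2678 and 2664 in DMSO at 24 h and 579, 658 and 650 at 120 h. With BaP it read 3567, 3360 and 3494 at 24 h and 1749, 1862 and 1753 at 120 h. The 4 groups did not overlap, and BaP was the higher at both times. Its response went from 0.39 ± 0.06 to 1.51 ± 0.06, a time-change difference of 1.12 ± 0.08 (adjusted p = 2.79e-09). Cenpf, Bub1b and Kif2c, which serve the kinetochore and its checkpoint, followed with 0.95 ± 0.13, 0.93 ± 0.10 and 0.87 ± 0.15. Cdk1, the kinase that starts mitosis, read 1087, 1268 and 1056 with BaP at 120 h against 574, 679 and 609 in DMSO, while at 24 h the groups overlapped at 2563 to 2651 and 2295 to 2624. Mki67, the proliferation marker, read 857, 781 and 647 against 361, 367 and 336 at 120 h, and its time-change difference was 0.83 ± 0.16. The checkpoint kinases Bub1 (0.81 ± 0.11) and Aurkb (0.54 ± 0.15) passed as well. Bub1 lost its call with the mean of its probe sets (0.27, adjusted p = 0.191), and Aurkb lost its own with all 60 arrays fitted and without DMSO 120 h replicate 1 (0.41, adjusted p = 0.0752).

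In the replication list, Mcm3, a subunit of the helicase that opens DNA at origins, read 616, 632 and 619 with BaP at 120 h against 239, 273 and 329 in DMSO. At 24 h it read 1454 to 1584 and 1423 to 1617, ranges that overlap. This gave a time-change difference of 1.08 ± 0.15, beside 0.96 ± 0.19 for Mcm5, 0.52 ± 0.10 for Mcm6 and 0.91 ± 0.14 for Uhrf1, which recruits the maintenance DNA methyltransferase. Cdc6, which loads the helicase, read 81.2 to 91.0 with BaP at 120 h and 31.1 to 49.2 in DMSO, with 0.85 ± 0.21, a call lost with all 60 arrays fitted. Prim1 (-0.17), Rfc2 (-0.10) and Gins4 (-0.02) did not pass. Among 28 regulators of the cell cycle 8 were higher and none lower in the time-change difference, against 5.36% and 3.7% of all genes, and 4 were higher with all 60 arrays fitted. Ccne1, the cyclin that drives entry into S phase, led them with 394, 420 and 413 units falling to 274, 307 and 264 with BaP and 352, 340 and 382 falling to 82.9, 103 and 113 in DMSO. The changes over time differed by 1.19 ± 0.16 (adjusted p = 7.68e-06). The repressor E2f7 had 0.94 ± 0.19. Among the inhibitors Cdkn2b passed as higher (0.39), while Cdkn1b (0.03) and Cdkn2a (-0.17) did not pass.

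**Figure D3:**
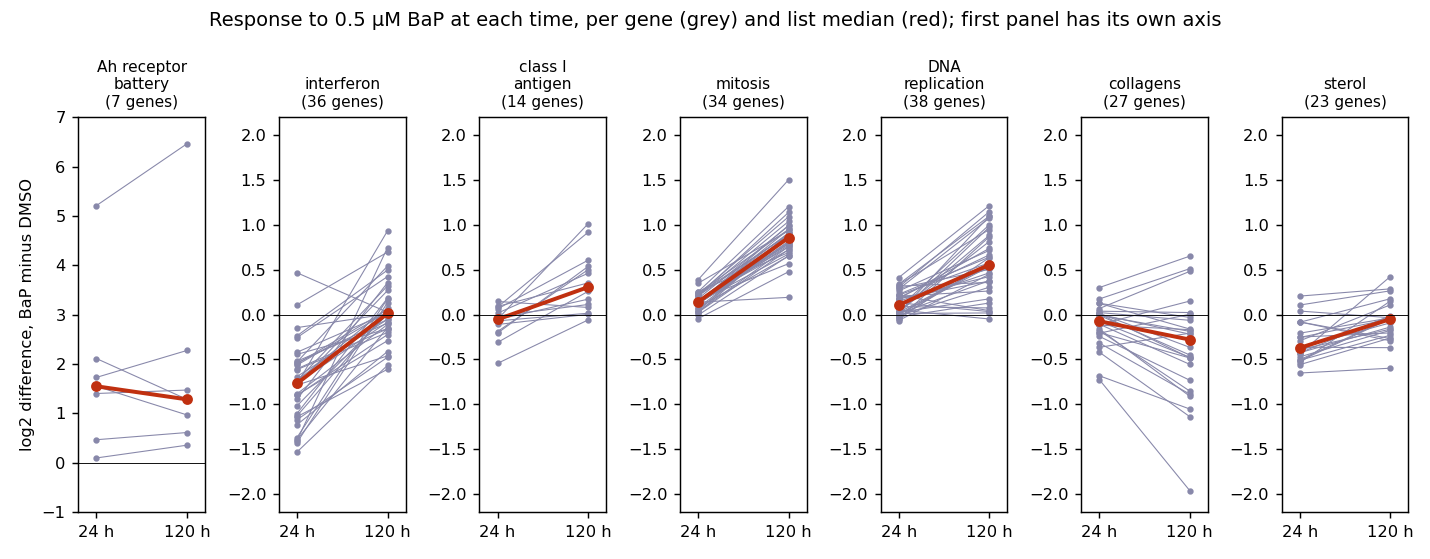
Log2 response to 0.5 µM BaP (BaP minus DMSO) at 24 h and at 120 h for each tested gene of 7 lists (grey) and the list median (red), with the Ah receptor battery on its own axis. Interferon genes moved from a median of -0.77 to 0.01, mitosis genes from 0.14 to 0.86, and collagen genes from -0.07 to -0.28.

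Many matrix genes gained less over time with BaP than in DMSO. Of 27 genes for collagens and their processing, 19 were higher at 120 h with BaP against 29.1% of all genes, with a median change of 0.33, where the DMSO median was 0.71. A lower time-change difference was found for 11 and a higher one for 2 (Col18a1 and Loxl3), against 3.7% and 5.36% of all genes. With all 60 arrays fitted the lower count was 6, and 1 of the 2 higher calls was lost when any array was left out other than DMSO 120 h replicate 1 or DMSO 24 h replicate 2. Col3a1, a fibrillar collagen, read 3936, 3854 and 3854 with BaP at 24 h and 4759, 4852 and 4484 at 120 h. In DMSO it read 4426, 4622 and 4646 at 24 h and 9030, 8635 and 8274 at 120 h. The 120 h controls stood far above the other 3 groups, and the time-change difference was -0.67 ± 0.06 (adjusted p = 7.24e-08). Col11a1 (-1.24 ± 0.16) and Col6a3 (-0.72 ± 0.13) followed, and Col1a1 (-0.75 ± 0.16) lost its call when all 60 arrays were fitted.

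Outside the collagens, Postn and Tnc, matrix proteins of remodelling tissue, were lower with BaP at both times and further below the controls at 120 h. In the list of 23 tested matrix-associated genes that holds Postn, the time-change difference was lower for 6 and higher for 3. The shares of all genes were 3.7% and 5.36%. Ccn5 and Thbs1 were among the higher, and the lower count ran from 2 to 9 under the alternatives. Postn read 67.6, 51.0 and 57.2 with BaP at 24 h and 162, 181 and 182 at 120 h. In DMSO it read 105, 107 and 225 at 24 h and 1756, 1221 and 1186 at 120 h. No value with BaP at 24 h reached the lowest control of that time, and those at 120 h lay within the 24 h control range. Its response went from -1.05 ± 0.18 to -2.95 ± 0.18, a time-change difference of -1.90 ± 0.26 (adjusted p = 9.96e-06), and Tnc had -0.72 ± 0.09. Among 14 small proteoglycans and relatives 4 were lower (Aspn, Fmod, Lum and Dcn) and 1 was higher, against 3.7% and 5.36%. The call of Fmod was lost when only the arrays compared were fitted. Decorin (Dcn), which binds collagen fibrils, rose with BaP from 2574 to 3038 up to 4577 to 6040 and in DMSO from 1726 to 2732 up to 6596 to 7349, a time-change difference of -0.75 ± 0.18. Lum stayed under 10 units with BaP, below the array medians, and its call was lost with 60 arrays.

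The lowest time-change difference was that of Agt, which encodes angiotensinogen, the precursor of angiotensin. It read 24.7, 21.3 and 19.2 in DMSO at 24 h and 680, 439 and 361 at 120 h, and with BaP 24.9, 19.3 and 20.6 at 24 h and 70.0, 73.0 and 49.9 at 120 h. The 24 h groups overlapped and were dim, and at 120 h the lowest control lay above every BaP array. Its response went from 0.01 ± 0.19 to -2.71 ± 0.19, a time-change difference of -2.72 ± 0.27 (adjusted p = 1.71e-07). Enpep, the aminopeptidase that trims angiotensin, rose in DMSO from 22.1 to 33.1 up to 148 to 258 and read 14.4 to 24.1 with BaP at both times (-2.14 ± 0.23). Sparcl1, a relative of the matrix protein osteonectin, had -2.18 ± 0.22. Actg2, an actin of smooth muscle, read 63.8 to 77.0 with BaP at 24 h and 54.2 to 71.5 at 120 h, against 68.2 to 92.6 and 288 to 345 in DMSO (-2.02 ± 0.23). Of 10 smooth muscle genes tested 3 were lower and none higher in the time-change difference, against 3.7% and 5.36% of all genes, and Acta2 (-0.40 ± 0.14, adjusted p = 0.0787) was not among them. Without DMSO 24 h replicate 3 the count was 6, and with same-numbered arrays of a time as a block it was 6 as well.

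The other genes among the 12 lowest included Nr4a1, an orphan nuclear receptor of the early response (-1.73 ± 0.18), Cacna1g, a calcium channel (-1.41 ± 0.17), Cdh13, a cadherin anchored by lipid (-1.28 ± 0.11), and the protease Adamts12 (-1.26 ± 0.15). Cdh13 read 511, 518 and 494 with BaP at 120 h against 2263, 2620 and 2165 in DMSO, with no overlap. Zc3h8 had -1.49 ± 0.17. H3f3b, a histone variant gene read here by a single probe set, moved in opposite directions, from 250 to 271 down to 141 to 189 with BaP and from 190 to 274 up to 386 to 410 in DMSO. Its time-change difference of -1.42 lost its call when all 60 arrays were fitted, and that of Moxd2 (-1.25) was lost in 6 of 23 alternatives, 5 of them without a single array (BaP 120 h replicate 1, BaP 24 h replicate 2, DMSO 120 h replicate 1 and DMSO 24 h replicates 1 and 3).

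Sterol synthesis genes mostly fell with time, and more of them lay below DMSO early than late. Of 23 genes tested 15 were lower with BaP at 24 h and 5 at 120 h, against 5.03% and 13.5% of all genes, with median responses of -0.37 and -0.05. With BaP 19 fell between the times, against 29.3%, with a median of -1.32 and a DMSO median of -1.50. The time-change difference was higher for 7, against 5.36% of all genes, and lower for none. It was higher for 2 with all 60 arrays fitted and for 3 without quantile normalization. Mvd, which makes isopentenyl diphosphate, read 289, 263 and 254 with BaP at 24 h and 52.7, 71.4 and 52.0 at 120 h, against 393, 326 and 375 and then 36.2, 38.7 and 42.3 in DMSO. It was the lower with BaP at 24 h and the higher at 120 h, without overlap, and its time-change difference was 0.86 ± 0.15. Stard4, a carrier of cholesterol in the cytosol, had 0.69 ± 0.16. Hmgcs1 (0.05 ± 0.12), which starts the pathway, did not pass.

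The p53 targets most used as signs of DNA damage showed no time-change difference that passed. It was -0.09 ± 0.13 for the cell cycle inhibitor Cdkn1a, 0.03 ± 0.07 for Mdm2, the ligase that limits p53, 0.15 ± 0.12 for Ccng1 and -0.23 ± 0.14 for Gadd45a, with 95% intervals of -0.35 to 0.17, -0.11 to 0.16, -0.10 to 0.40 and -0.53 to 0.07. A dimmer Mdm2 probe set gave 0.62. Cdkn1a rose with time in both, from 668 to 691 up to 1027 to 1205 with BaP and from 520 to 576 up to 857 to 1059 in DMSO. Of 22 p53 targets of arrest and feedback, 6 were higher with BaP than with DMSO at 24 h and 0 lower, against 4.65% and 5.03% of all genes. At 120 h 13 were higher and 2 lower, against 14.4% and 13.5%. The median response was 0.12 at 24 h and 0.29 at 120 h. In the time-change difference 4 were higher (Gtse1, Aen, Phlda3 and Sesn2) and 2 lower (Sesn1 and Ptprv), against 5.36% and 3.7% of all genes. With all 60 arrays fitted 1 was higher and 0 lower. Without normalization between arrays 1 was higher and 1 lower, and Aen was not called. Of 37 DNA repair genes, 6 were higher with BaP than with DMSO at 24 h and 1 lower, and 19 were higher at 120 h and 1 lower. These counts stand against the same shares of all genes. In the time-change difference 8 were higher (4 with all 60 arrays fitted) and 2 lower (Ddb2 and Xrcc5), and this lower share lies near the 3.7% of all genes. Only 1 of the lower calls was left without BaP 120 h replicate 1, BaP 24 h replicate 1 or 2, DMSO 120 h replicate 1 or DMSO 24 h replicate 2. The higher ones included Rad51ap1 (0.97 ± 0.14) and Brca1 (0.89 ± 0.11), which serve repair by homologous recombination. Both fell with time, Rad51ap1 by -1.49 with BaP and -2.46 in DMSO and Brca1 by -1.28 and -2.17. Of the 37 repair genes 22 fell with BaP and 22 in DMSO, against 29.3% of all genes in each. Their median changes over time were -0.60 and -0.67. Ddb2, which recognises bulky DNA damage, read 204, 181 and 180 with BaP at 24 h and 147, 167 and 151 at 120 h. In DMSO it read 138, 98.9 and 109 at 24 h and 155, 151 and 154 at 120 h, so the groups lay apart early and overlapped late. Its time-change difference was -0.65 ± 0.13 (adjusted p = 0.000892).

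Genes of glutathione, thioredoxin and quinone defence, which the factor Nrf2 drives, were above the controls at both times. Of 25 tested, 15 were higher with BaP at 24 h and 15 at 120 h, against 4.65% and 14.4% of all genes, with median responses of 0.30 and 0.28. The time-change difference was higher for 3 (Osgin1, Gclc and Me1) and lower for 1 (Hmox1), against 5.36% and 3.7%, and the higher count was 1 without BaP 24 h replicate 1 or DMSO 120 h replicate 1. Gclc, the catalytic subunit of the first enzyme of glutathione synthesis, read 410, 386 and 473 with BaP at 24 h and 285, 295 and 289 at 120 h, against 281 to 312 and 120 to 161 in DMSO. Its BaP arrays lay above the controls of the same time without overlap, and its time-change difference was 0.46 ± 0.12. That call was lost without normalization, with a common median, and without BaP 24 h replicate 1 or DMSO 120 h replicate 1. The call of Me1 was lost in 9 of 23 alternatives and that of Osgin1 in 3. Hmox1, heme oxygenase, read 689 to 868 with BaP at 24 h against 544 to 619 in DMSO, and the groups overlapped at 120 h (-0.53 ± 0.13, not called with all 60 arrays fitted).

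Inflammatory genes held a group that was higher with BaP late. Saa3, an acute phase protein of stromal cells, read 55.7, 46.9 and 37.8 with BaP at 24 h and 118, 156 and 141 at 120 h, while DMSO read 31.9 to 43.8 and then 21.4 to 26.6. This gave a time-change difference of 1.66 ± 0.20 (adjusted p = 2.06e-06). Ptgs2, the inducible cyclooxygenase, read 221, 214 and 212 with BaP at 24 h and 410, 367 and 378 at 120 h, against 68.0 to 81.8 and 50.8 to 59.7 in DMSO. It was above the controls at both times, with responses of 1.31 ± 0.10 and 2.53 ± 0.10. Of the 11 prostaglandin genes tested, Ptgs2 included, 3 were higher in the time-change difference and 3 lower. The shares of all genes were 5.36% and 3.7%. Cbr2 and Ptgis were among the lower, and the lower count ran from 1 to 4 under the alternatives. Chil1, a chitinase-like protein of inflamed tissue, had responses of 1.55 ± 0.11 and 1.75 ± 0.11, and its time-change difference of 0.21 ± 0.16 did not pass (95% interval -0.12 to 0.53). Of 21 chemokines and cytokines tested 6 were higher (Saa3, Ccl5, Ccl7, Ccl8, Ccl2 and Cxcl1), against 5.36% of all genes. The lower count of 1 lies near the 3.7% of all genes and was Csf3, whose call was lost without BaP replicates 1 or 2 of either time or DMSO replicate 1 of either time. Ccl5, a chemokine for T cells, read 511, 466 and 479 with BaP at 24 h and 827, 948 and 977 at 120 h, against 989 to 1085 and 567 to 811 in DMSO (1.42 ± 0.16). Ccl7 and Ccl8, which draw monocytes, had 1.17 ± 0.21 and 1.15 ± 0.22. Beside these values, the 4 of 10 macrophage and leukocyte markers tested were Adgre1, Cd14, Csf1r and Lyz2. Of these 1 was called higher with BaP than with DMSO at each time, against 4.65% of all genes at 24 h and 14.4% at 120 h. At 120 h 2 of the 4 estimates were negative. The whole list summed to 655 to 692 and then 755 to 777 units with BaP, and to 542 to 615 and then 647 to 729 in DMSO. Its part in these results was not tested.

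Other genes among the 12 highest were Fam240b, Ces1d, Ccn5 and Dtl. Fam240b read 203, 113 and 37.5 with BaP at 120 h and 7.56 to 52.4 in the other 3 groups, so its time-change difference of 2.44 ± 0.48 came with a wide spread. Ces1d, a carboxylesterase, read 258, 278 and 238 with BaP at 120 h and 25.5 to 59.5 elsewhere (1.64 ± 0.21, not called with 60 arrays). Ccn5, a matrix protein related to Ccn1, fell in DMSO from 98.0 to 132 down to 20.9 to 24.1 and read 104 to 134 with BaP at 120 h (1.61 ± 0.23). Dtl, which marks replication proteins for decay, had 1.30 ± 0.18.

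Set beside MCA, another Ah receptor ligand, the change over time with BaP went the same way for sterol genes, further down for cell division genes and up for interferon genes, whose MCA median lay near 0. The concentrations were 0.5 µM BaP and 2 µM MCA, so compound and concentration cannot be told apart. The change over time differed between them for 3425 genes, 28.6% of those tested, 1635 higher and 1790 lower with BaP, and scaling to a common median gave 822 and 1371. Of 36 interferon genes 22 were higher with BaP and none lower, against 13.7% and 15% of all genes, with median changes of 0.49 with BaP and -0.05 with MCA. Of 34 mitosis genes 1 was higher and 23 lower, with medians of -1.48 and -1.06, and of 38 replication genes 27 were lower and none higher. For collagens 10 of 27 were higher with BaP and none lower, with medians of 0.33 with BaP and -0.0047 with MCA.

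**Figure D4:**
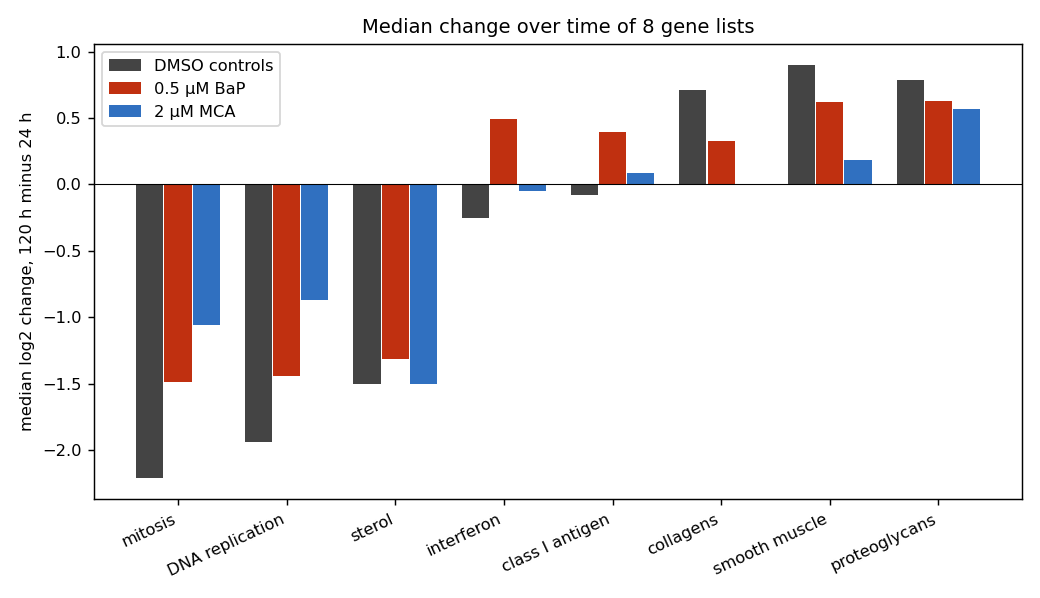
Bars give the median log2 change from 24 h to 120 h of 8 gene lists in DMSO, in 0.5 µM BaP and in 2 µM MCA, without an error bar because each is a median over genes. Mitosis medians were -2.21, -1.48 and -1.06, and interferon medians were -0.25, 0.49 and -0.05.

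The lowest differences from MCA included proteases and a guidance protein that rose far more with MCA. Mmp3, stromelysin, read 30.4, 19.1 and 21.7 with BaP at 24 h and 12.5, 10.2 and 15.9 at 120 h, and with MCA 35.6, 32.0 and 31.6 at 24 h and 679, 614 and 685 at 120 h. Only the MCA arrays of 120 h stood above the others, and the changes differed by -4.23 ± 0.47 (adjusted p = 2.12e-07). Mmp13, a collagenase, rose with both, from 7.83 to 14.2 up to 54.5 to 59.6 with BaP and from 7.98 to 23.3 up to 754 to 880 with MCA (-3.36 ± 0.23). Sema5a, a guidance protein, read 2.04 to 11.6 with BaP at 120 h and 509 to 692 with MCA (-4.47 ± 0.40). Dynap (-4.11) and the protease Adam8 (-2.96) followed. In the other direction stood Fam240b (1.89), the matrix glycoprotein Thbs1 (1.69), the protocadherin Pcdh19 (1.52), the neutrophil chemokine Cxcl1 (1.48) and Ccn1 (1.47). Thbs1 read 482, 416 and 490 with BaP at 24 h and 2397, 2647 and 2404 at 120 h, against 673 to 1125 and 1354 to 1715 with MCA. For Cyp1a1 the change over time was 0.61 ± 0.12 with BaP and -0.19 ± 0.12 with MCA, and they differed by 0.81 ± 0.16 (adjusted p = 0.000487).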

How the data were processed

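Total RNA of 60 samples was read on single-colour arrays of 45101 probe sets, and the values deposited by the authors are intensity per probe set on a linear scale. The submitters' processing notes name GCOS as the software, and their scaling target is not given in the sources used here. Both the members and the gene lists were chosen with earlier results of these data known, and so was the use of the 30 literature-concentration arrays, since the other 30 had shown a wider spread.

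Values were turned into log2(intensity + 16) and quantile normalised within these 30 arrays. Differences are on that scale, which understates changes of dim genes. Of the probe sets, 34958 had 1 gene symbol in GEO's platform annotation, 932 had several and 9211 were not listed. Symbols were updated through identifiers for 34754, and 204 kept their older symbol. Each gene was read by its probe set of highest mean, and a gene was tested where 3 or more arrays lay above the median over all probe sets, which left 11957 genes. Limma 3.58.1 in R 4.3.3 fitted 10 group means with a trended empirical Bayes prior, and two-sided p-values were Benjamini-Hochberg adjusted over all genes tested, with a threshold of 0.05. The steps were tested on simulated data with independent noise on each array. That test does not cover deviations shared by same-numbered arrays, which are described next.

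Same-numbered arrays of BaP and DMSO deviated together within a time (correlations of 0.464, 0.559 and 0.319 at 24 h and 0.278, 0.423 and 0.396 at 120 h) and not between times, where 3 of the 6 correlations were below 0. Blocks within a time were therefore an alternative for contrasts that allow them. Other alternatives were no normalization, a common median, other pseudocounts (4 and 64) and filters, the mean of a gene's probe sets, other sets of arrays and leaving out each array.

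Genes named were the 10 highest and 10 lowest changes over time with BaP, the 12 highest and 12 lowest time-change differences, up to 8 with opposite changes, and the 5 highest and 5 lowest differences from MCA, each past the threshold. The changes with BaP had also to show no overlap between the arrays of the times. The time-change differences had to show none between times once the DMSO mean of the time was subtracted, which all 1084 called genes met, although raw values of a gene may overlap. Up to 4 members of each list and a fixed set including Cyp1a1, Cdkn1a, Hmgcs1 and Postn were added, of which Ahrr and Ccnb1 were not tested. Cdk1, Mki67, Mcm6, H2-K1, Cdkn2b and members named as not passing were chosen after their values were seen. Promoters came from RefSeq's table for GRCm38.p6. Array number limits the precision.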

Additional observations from a re-analysis of the deposited data

Results flagged for a closer look

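The change over time differed between BaP and DMSO for 1084 genes and between BaP and MCA for 3425 genes, each by a test of the difference itself. Among the genes that moved in opposite directions with BaP and DMSO, with both changes and their difference past the threshold, were the antiviral genes Rsad2 (a time-change difference of 2.15), Zbp1 (1.71) and Ifit1 (1.55). The others were Saa3 (1.66), Ccl5 (1.42), Cyp1a1 (1.25), 4930593A02Rik (1.26) and H3f3b (-1.42). 4930593A02Rik was dim and read 18.3, 20.0 and 32.3 units with BaP at 24 h and 44.4, 29.0 and 60.6 at 120 h, where the times overlap.

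Between BaP and MCA the change over time differed most upward for Fam240b (1.89), Thbs1 (1.69), Pcdh19 (1.52), Cxcl1 (1.48) and Ccn1 (1.47). It differed most downward for Sema5a (-4.47), Mmp3 (-4.23), Dynap (-4.11), Mmp13 (-3.36) and Adam8 (-2.96).

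Outside the genes with a name, 3294 probe sets that the platform annotation did not list passed the filter on low values. The time-change difference passed the test for 43 of them (1.31%), 18 higher and 25 lower. They were fitted and adjusted apart from the named genes, so this share is not directly comparable with the 9.07% of those. These probe sets are not described further.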

How the results depend on the processing

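No named gene that passed its test changed sign under any alternative. Among values that did not pass, Mdm2 ran from -0.0029 to 0.27 and Hmgcs1 from -0.013 to 0.18. The near-even splits of the responses turned in some settings, to 1056 higher and 1028 lower at 24 h with the block within time and to 1404 higher and 1433 lower at 120 h without BaP 120 h replicate 2. The count of genes with a time-change difference was 1084, and it was 536 without normalization, 596 with a common median, 361 with all 60 arrays fitted and 1934 with the replicate block within time. The response at 24 h, 1158 genes, gave 551, 629, 376 and 2084 under the same settings and 664 when only the groups compared were fitted. The response at 120 h, 3330 genes, gave 1658 with all 60 arrays. The difference from MCA, 3425 genes, gave 1992 without normalization, 2193 with a common median (37.5% higher against 47.7%) and 1434 with all 60 arrays. With a common median 63.1% of the genes differing at 120 h were higher, against 51.6%. A plain replicate block gave 1543 genes for the time-change difference, and under either block no named gene lost its call and Fdps gained one. Block within time was not run for the single changes over time, where it cannot be estimated.

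Leaving out 1 array gave 6513 to 6662 genes for the change with BaP, 6678 to 6826 in DMSO, 836 to 1042 for the time-change difference, 738 to 1393 for the response at 24 h, 2710 to 2992 at 120 h and 2875 to 3400 for the difference from MCA. Of 129 named time-change differences, 49 lost their call with all 60 arrays, 24 without normalization and 19 with a common median. The fit of all 60 arrays kept the log2 estimates of these genes, and only its estimate of the spread and the p-values differed. What caused the losses in the other settings was not tested. The 20 named changes with BaP and the 10 differences from MCA kept their calls wherever they were tested. Dim genes such as Agt at 24 h are limited by signal near background.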

Other observations

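Several targets of the stress factor Atf4 were higher with BaP late. Of 25 genes of the unfolded protein and Atf4 responses, 5 were higher with BaP at 24 h and 15 at 120 h, against 4.65% and 14.4% of all genes. The time-change difference was higher for 7 and lower for 1, against 5.36% and 3.7% of all genes, and higher for 3 with all 60 arrays fitted. Nupr1, a small stress-induced chromatin protein, read 1297, 1266 and 1335 with BaP at 24 h and 1035, 1349 and 1370 at 120 h, while DMSO went from 1065 to 1371 down to 541 to 604. Only the late controls stood apart, and the time-change difference was 0.94 ± 0.16 (limma, adjusted p = 0.000145). Trib3, a pseudokinase that restrains Atf4, had 0.74 ± 0.12, and the lower gene was Xbp1 (-0.37 ± 0.09), a factor of another arm of the unfolded protein response.

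Among 19 genes of Egf receptor and Erk signalling 4 were higher and 1 lower, against 5.36% and 3.7% of all genes, and with all 60 arrays fitted 0 passed. Phlda1 read 1037, 1138 and 1069 with BaP at 24 h and 1898, 2047 and 2161 at 120 h, against 619 to 797 and 667 to 847 in DMSO. The BaP groups lay above the controls at both times, and the time-change difference was 0.83 ± 0.13. Of 15 matrix proteases and their inhibitors 3 were higher and 4 lower, beside the same shares of all genes, and the lower count was 2 without BaP 120 h replicate 1 or 3, BaP 24 h replicate 1 or DMSO 120 h replicate 1. Mmp9, a gelatinase, read 133 to 158 with BaP at 120 h and 349 to 377 in DMSO (-0.81 ± 0.13), while the aggrecanase Adamts4 read 435 to 453 against 231 to 237 (0.74 ± 0.11).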
